A study of Homo sapiens with 42 samples.

Results

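RBM5 and 5 related genes of the RNA-binding motif class were followed through K562 cells, a human line derived from chronic myeloid leukemia in blast crisis that depends on the BCR-ABL1 kinase. The 6 genes, RBM5, RBM6, RBM25, RBM39, RBM3 and CIRBP, were taken by name, and each matched 1 of the 58243 gene identifiers in the count tables. All 6 passed the filter on low counts, among 18095 genes tested in mRNA and 21929 in nuclear RNA. Both mRNA and nuclear RNA were sequenced. Poly(A) mRNA gave 27 libraries in 9 groups, namely untreated cells (CTRL), imatinib (IM, 1 µM) for 1, 6 or 18 h, JTE-607 (JTE, 5 µM) for 1, 6 or 18 h, and hyperosmotic shock with KCl (110 mM) for 1 or 3 h. Nuclear RNA depleted of ribosomal RNA gave 15 libraries in 5 groups, CTRL, IM 1h, IM 18h, JTE 1h and KCl 1h. Each group held 3 biological replicates of the same line, and every treated group was compared with untreated cells rather than with a vehicle group named as such in the labels.

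Imatinib blocks the BCR-ABL1 kinase, JTE-607 inhibits the nuclease that cleaves pre-mRNA at its 3′ end, and KCl stresses cells osmotically. Proteins with RNA recognition motifs bind short stretches of RNA, and several of them help or hinder the early steps in which the U1 and U2 particles mark the ends of an intron. RBM5, a candidate tumor suppressor of lung, joins early spliceosomes and shifts the splicing of apoptosis genes such as FAS, CASP2 and CFLAR. RBM6 is its paralog and its immediate upstream neighbor. RBM25 favors the death-promoting splice form of BCL2L1, and RBM39 resembles the splicing factor U2AF2 and also acts with nuclear receptors in transcription. RBM3 and CIRBP are small glycine-rich proteins whose mRNAs rise on mild cooling. RBM5 was itself singled out by the study in these cells, so that its rise below is not independent evidence of its direction. Under imatinib the study saw no matching rise of RBM5 protein, and presumed intron retention and degradation in the nucleus as the reason. It also reported more intron retention in nascent RBM5 RNA. Exon counts do not show how much of the rise is fully spliced RNA, and this was not tested.

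Library totals were 16439848 to 62953314 counted fragments in mRNA and 16175394 to 25103205 in nuclear RNA. The mRNA maximum was 22505595 without KCl 1h replicates 2 and 3, the only 2 deeper libraries. All 8 markers of the erythroid and megakaryocytic character of K562 were above 10 CPM (counts scaled to library size) in mRNA CTRL, whereas 4 of 6 markers of other cell types were under 1 CPM. The highest of these 6 was EPCAM at 91.0 CPM. In bulk RNA a lower level in each cell and fewer cells that express a gene cannot be told apart.

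RBM6 and RBM5 lie in tandem on the plus strand of chromosome 3 (GRCh38), RBM6 (ENSG00000004534) at chr3:49940007-50100045 and RBM5 (ENSG00000003756) at chr3:50088908-50119021. Their spans overlap in the count tables because 1 of 20 annotated RBM6 transcripts in GENCODE 44 ends beyond the start of RBM5, while the canonical RBM6 transcript ends 11670 bases before the canonical RBM5 transcript begins. RBM25 (ENSG00000119707) is at chr14:73058436-73123898 on the plus strand, RBM39 (ENSG00000131051) at chr20:35701347-35742312 on the minus strand, RBM3 (ENSG00000102317) at chrX:48574449-48579066 and CIRBP (ENSG00000099622) at chr19:1259384-1274880, both on the plus strand. Counts were taken over all annotated exons of a gene, and a fragment that touched exons of 2 genes was left out. For RBM5 this concerned 21.2% of its counted exon bases, of which 456 bases are shared with RBM6 and the rest with antisense RNAs, and for the other 5 genes 0.0% to 6.24%.

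The starts of 4 of them are shown because the results turn on the pairs RBM5 with RBM6 and RBM3 with CIRBP. Each sequence gives the 250 bases before the RefSeq start of the gene on its own strand (GRCh38.p14), and RefSeq entries were found for 5 of the 6 genes. Capitals mark CCAAT and GGGCGG, and in the CIRBP stretch also CGGAAG, read on either strand, so that ATTGG and CCGCCC are the same motifs on the other strand.
RBM5 (chr3:50088669-50088918, + strand): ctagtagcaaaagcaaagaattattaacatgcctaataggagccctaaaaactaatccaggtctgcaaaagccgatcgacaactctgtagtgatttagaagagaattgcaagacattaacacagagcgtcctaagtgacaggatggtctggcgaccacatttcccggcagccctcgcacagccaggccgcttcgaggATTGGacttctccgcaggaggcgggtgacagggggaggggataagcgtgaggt
RBM6 (chr3:49939900-49940149, + strand): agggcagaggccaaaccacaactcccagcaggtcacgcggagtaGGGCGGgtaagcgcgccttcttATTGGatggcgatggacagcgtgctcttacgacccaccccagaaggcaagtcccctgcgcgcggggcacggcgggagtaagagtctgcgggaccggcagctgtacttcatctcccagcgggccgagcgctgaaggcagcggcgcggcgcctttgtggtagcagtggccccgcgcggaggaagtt
RBM3 (chrX:48574234-48574483, + strand): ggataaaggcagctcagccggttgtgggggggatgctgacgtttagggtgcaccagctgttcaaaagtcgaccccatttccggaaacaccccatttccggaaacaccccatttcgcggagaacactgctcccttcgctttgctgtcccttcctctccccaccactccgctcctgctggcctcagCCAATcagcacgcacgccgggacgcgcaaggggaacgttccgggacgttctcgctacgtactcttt
CIRBP (chr19:1269082-1269331, + strand): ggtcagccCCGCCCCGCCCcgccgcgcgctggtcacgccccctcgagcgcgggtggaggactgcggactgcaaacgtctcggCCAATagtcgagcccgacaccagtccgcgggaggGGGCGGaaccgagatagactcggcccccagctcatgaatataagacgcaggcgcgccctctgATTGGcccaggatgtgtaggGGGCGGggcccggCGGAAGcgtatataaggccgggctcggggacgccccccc

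The CCAAT motif occurred in all 5 windows found, against 32.0% of the 35116 promoter windows of the same length in the reference. GGGCGG occurred 4 times before CIRBP and once each before RBM6 and RBM25, and in 42.6% of all windows. CGGAAG occurred once before CIRBP only (16.5% of all windows). None of the 5 held TATAAA (10.7%) or CACGTG (6.34%), and TCCCCGCC, a letter string linked to mild cold induction, occurred before RBM25 alone, overlapping its GGGCGG match (7.75%). These matches describe letters in a window and were not tied to any change below.

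In untreated cells RBM5 mRNA was the least abundant of the 6 per length and RBM3 mRNA the most abundant. Per kilobase of counted exon, scaled by the trimmed mean of M values (TMM), mRNA CTRL held 4.41 ± 0.766 CPM of RBM5, 15.69 ± 1.49 of RBM6, 17.15 ± 0.795 of RBM25, 20.0 ± 3.53 of CIRBP, 25.77 ± 0.998 of RBM39 and 78.35 ± 14.1 of RBM3 (SD, n = 3). In that order the libraries of RBM6 and RBM25 overlapped, as did those of RBM25 and CIRBP, and the other neighbors did not. The counted exon length of RBM5, 10368 bases, is far longer than the 3177 bases of its canonical transcript, and 16 of its 26 annotated transcripts are of the retained intron class. Over the canonical length RBM5 was at 14.39 ± 2.5 CPM per kilobase in mRNA CTRL and remained the lowest. RBM3 at 68.02 ± 12.3 remained the highest, although within its SD of RBM39 at 60.78 ± 2.36. The canonical length of RBM3, 4298 bases, exceeds its 3731 counted exon bases, so that this division understates RBM3.

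Relative to mRNA, nuclear RNA held less RBM3 than of most genes, while RBM5 lay only a little above the median gene. The 2 tables were normalized separately and came from different library types, so levels across them are only descriptive. The log2 ratio of mean nuclear CTRL to mean mRNA CTRL CPM was 0.46 for RBM5 and 0.45 for CIRBP, near the 61.1 and 60.4 percentiles of 16728 genes in both tables, whose median was 0.30. It was −0.03 for RBM6, −0.34 for RBM39, −0.57 for RBM25 and −0.62 for RBM3, the last at the 6.39 percentile.

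Imatinib for 18 h raised RBM5 mRNA and lowered RBM6, RBM25, RBM39 and RBM3. RBM5 was at 54.4, 43.96 and 38.8 CPM in the 3 mRNA CTRL libraries and at 75.7, 78.3 and 76.2 CPM in IM 18h. Every treated library lay above every control library, and the treated libraries were close to one another. The log2 fold change was 0.75 (SE 0.167, 1.68-fold), with an adjusted p of 0.000901 by the edgeR quasi-likelihood test with Benjamini-Hochberg adjustment over all genes, and RBM5 was the only gene of the 6 that was called. A gene is named as called when its adjusted p is under 0.05 and its log2 fold change is beyond 0.6, and as risen or fallen when its adjusted p alone is under 0.05. The called share of all genes was 30.5%, so that 1 of 6 was no more than the background, and 5 of 6 passed the adjusted p alone against 43.8% of all genes.

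RBM6, the upstream neighbor, went the other way. Its level was 123.4, 102.5 and 118.0 CPM in mRNA CTRL and 68.3, 86.6 and 89.1 CPM in IM 18h, with no overlap (log2 fold change −0.49, SE 0.112, adjusted p = 0.00103, edgeR). RBM25 was at 212.1, 193.4 and 204.8 CPM in CTRL and at 140.1, 165.7 and 147.0 CPM in IM 18h, again apart (log2 fold change −0.43, SE 0.107, adjusted p = 0.00233). RBM39 fell less, from 298.1, 303.6 and 320.9 CPM to 245.4, 254.7 and 262.7 CPM, and its 2 groups did not overlap (log2 fold change −0.27, SE 0.0759, adjusted p = 0.00515).

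The cold-inducible pair behaved less uniformly. RBM3 was at 282.5, 245.2 and 349.3 CPM in CTRL and at 208.5, 253.3 and 178.2 CPM in IM 18h, and the groups overlapped through IM 18h replicate 2. Its log2 fold change was −0.45 (SE 0.151, adjusted p = 0.0175), and adjusted p was 0.0533 without IM 18h replicate 1, 0.101 without replicate 3 and 0.0927 without CTRL replicate 3. CIRBP was at 152.6, 109.4 and 120.0 CPM in CTRL and at 133.5, 195.3 and 116.2 CPM in IM 18h, with a log2 fold change of 0.22 (SE 0.209, adjusted p = 0.416).

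**Figure D1:**
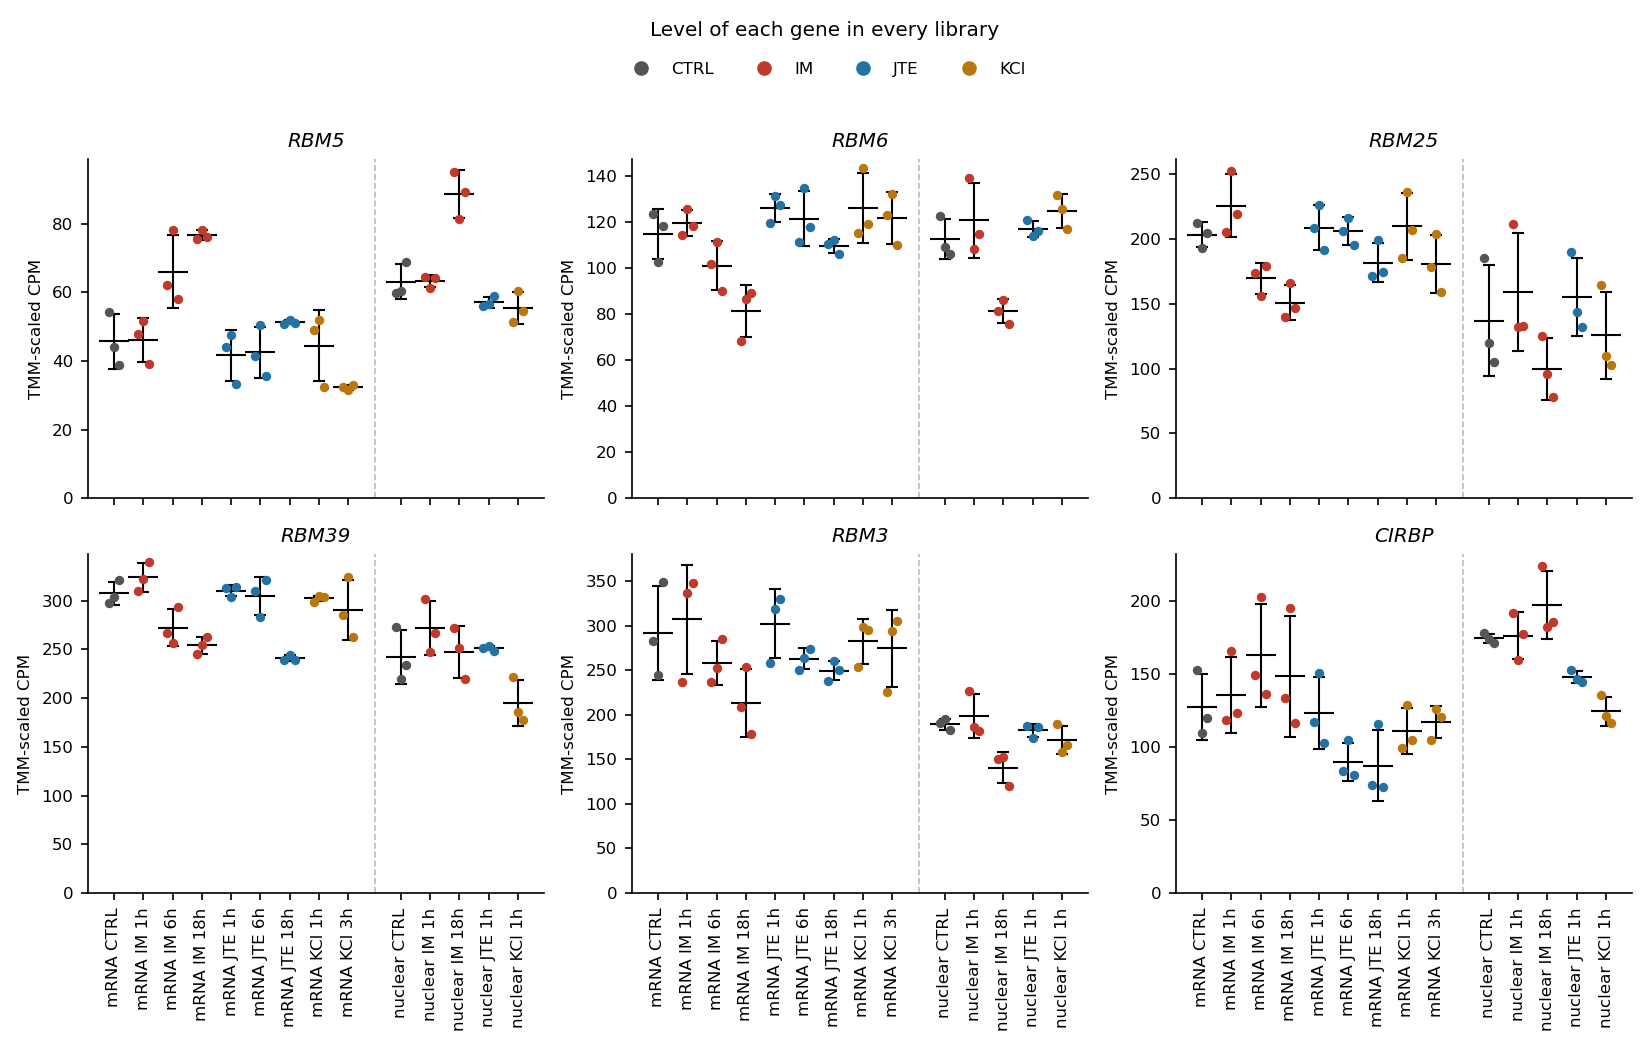
Level of each of the 6 genes in every library, in TMM-scaled CPM on linear axes from 0, with the 9 mRNA groups left of the dashed line and the 5 nuclear groups right of it. Dots are single libraries and black bars the mean ± SD of 3. RBM5 stands above its CTRL libraries in IM 18h of both preparations, where RBM6 stands below, and nuclear RBM25 shows 1 high library in each group.

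The imatinib changes were not seen at 1 h. No gene of the 6 was called in mRNA at 1 h, where 0.0166% of all genes were, and their log2 fold changes lay between 0.01 and 0.15 with adjusted p = 1.0 each. For RBM5 the 95% interval at 1 h ran from −0.33 to 0.36. At 6 h RBM5 was at 62.1, 78.2 and 58.1 CPM, above all 3 CTRL libraries (log2 fold change 0.53, SE 0.167, adjusted p = 0.0311). None of the 6 was called at 6 h (background 9.94%) and RBM5 alone passed the adjusted p (background 16.0%). RBM5 no longer passed without CTRL replicate 2 (adjusted p = 0.111) or 3 (0.204) and without IM 6h replicate 1 (0.0631) or 2 (0.215), and it was called at 0.67 without CTRL replicate 1.

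Between 1 and 6 h of imatinib the shift was itself tested. RBM5 rose by 0.52 (SE 0.166, adjusted p = 0.0402), RBM25 fell by 0.41 (SE 0.107, adjusted p = 0.0115) and RBM39 fell by 0.25 (SE 0.0758, adjusted p = 0.0297) on the log2 scale. Of the 6 genes, 3 passed the adjusted p against 13.0% of all genes and none was called against 8.2%. RBM5 did not pass at this step in any of the 6 fits without 1 library, whose adjusted p ran from 0.0518 without IM 1h replicate 2 to 0.24 without IM 6h replicate 2. RBM25 no longer passed without IM 1h replicate 2 (adjusted p = 0.0949) and without IM 6h replicate 2 (0.0601). RBM39 no longer passed without IM 1h replicate 2 (0.0792) or 3 (0.0976) and without IM 6h replicate 1 (0.0729) or 2 (0.096). From 6 to 18 h no gene of the 6 passed (4.41% of all genes were called). The largest difference of the 6 there was −0.31 for RBM6 (SE 0.112, adjusted p = 0.0854), and RBM5 differed by 0.22 (SE 0.165, adjusted p = 0.457).

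In nuclear RNA RBM5 rose and RBM6 and RBM3 fell at 18 h, each by less than the called size. RBM5 was at 59.9, 60.4 and 69.0 CPM in nuclear CTRL and at 95.2, 81.5 and 89.4 CPM in nuclear IM 18h (log2 fold change 0.49, SE 0.0962, adjusted p = 0.00031). RBM6 was at 122.3, 109.2 and 106.0 CPM against 81.2, 86.2 and 75.8 CPM (log2 fold change −0.47, SE 0.102, adjusted p = 0.000796). RBM3 was at 190.9, 194.8 and 182.9 CPM against 150.0, 152.1 and 120.1 CPM (log2 fold change −0.43, SE 0.108, adjusted p = 0.00279). In each of these the treated libraries lay wholly on one side of the controls. In this fit by group alone none of the 6 was called (background 32.6%), and 3 of 6 passed the adjusted p alone (background 45.6%). With the replicate numbers as a block RBM25 and CIRBP passed as well, without a share of all genes to set beside them.

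RBM25 and CIRBP depended on the pairing of nuclear libraries. Nuclear RBM25 was at 185.6, 119.7 and 105.2 CPM in CTRL and at 125.3, 96.2 and 78.2 CPM in IM 18h, and replicate 1 was the highest library in all 5 nuclear groups. Without the replicate number as a block its log2 fold change of −0.45 had a SE of 0.280 (adjusted p = 0.213), and with the replicate block it was −0.44 (adjusted p = 4.61e-06). CIRBP was at 177.7, 173.9 and 171.3 CPM in CTRL and at 223.9, 182.4 and 185.3 CPM in IM 18h (log2 fold change 0.18, SE 0.0985, adjusted p = 0.15), all above the controls, with an adjusted p of 0.0337 under the replicate block. RBM39, lower in mRNA, was at 272.9, 220.1 and 234.0 CPM in nuclear CTRL and at 271.6, 251.2 and 219.5 CPM in nuclear IM 18h (log2 fold change 0.03, SE 0.110). At 1 h of imatinib no nuclear value of the 6 passed (called share of all genes 0.0456%), with log2 fold changes of 0.00 to 0.22.

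An interaction term compared each treatment's effect in nuclear RNA with its effect in mRNA. At IM 18h none of the 6 passed (called share 0.0851%). The largest difference was that of RBM39, 0.38 higher in nuclear RNA (95% interval 0.06 to 0.69, unadjusted p of the edgeR test 0.0207, adjusted p = 0.92), and for RBM5 the nuclear response was lower by 0.18 with an interval from −0.55 to 0.19. At IM 1h (0.0%), JTE 1h (0.0605%) and KCl 1h (0.668%) none of the 6 passed either, with smallest adjusted p values of 1.0, 0.925 and 0.437 in edgeR. At an unadjusted p under 0.05 the 6 genes gave 0, 1, 0 and 1 results for IM 1h, IM 18h, JTE 1h and KCl 1h, both of them RBM39. Over all genes, 395 of 19420, 960 of 19967, 1175 of 19831 and 2035 of 21095 were under that p, in the same order.

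**Figure D2:**
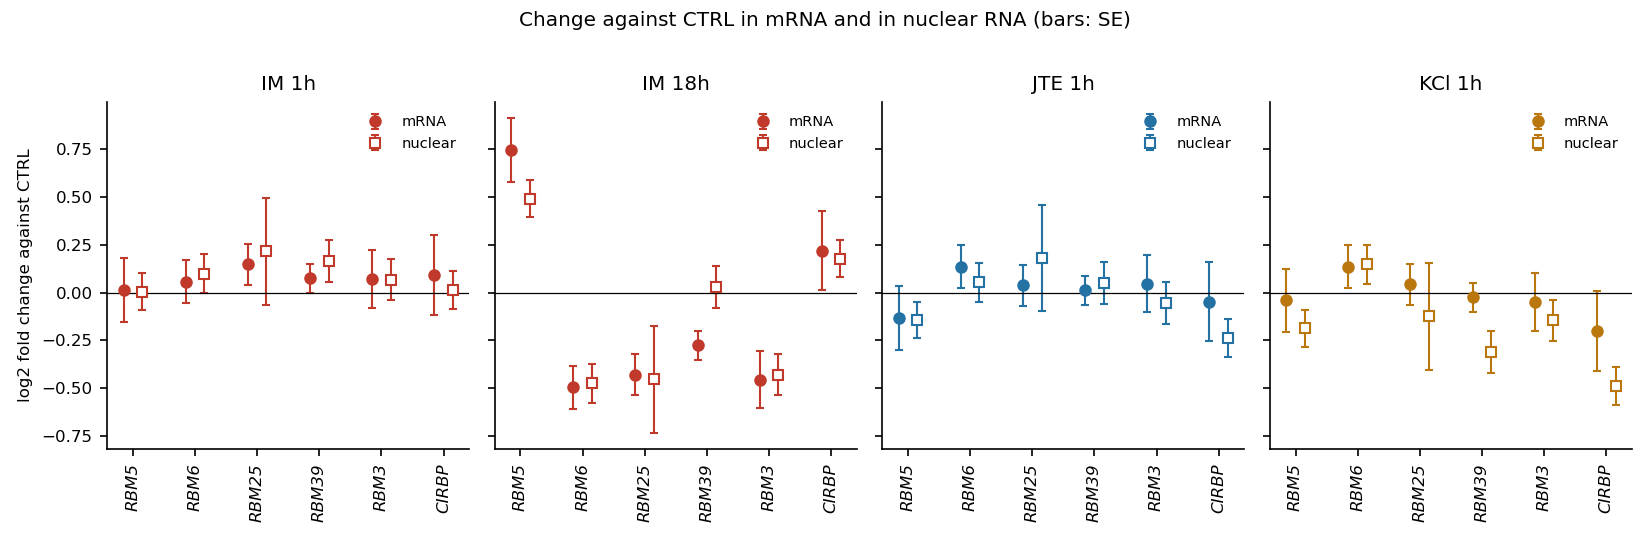
Log2 fold change against CTRL of the 6 genes in the 4 treatments measured in both preparations, with filled circles for mRNA, open squares for nuclear RNA and bars for ± SE. At IM 18h RBM5 is positive and RBM6, RBM25 and RBM3 negative in both, while RBM39 is at −0.27 in mRNA and 0.03 in nuclear RNA.

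RBM5 and RBM6 passed the test in no JTE-607 group. RBM5 was at 44.2, 47.6 and 33.2 CPM at 1 h, at 41.5, 50.5 and 35.7 CPM at 6 h and at 50.9, 51.9 and 51.2 CPM at 18 h, overlapping CTRL at each time. Its log2 fold changes were −0.13, −0.10 and 0.17 (adjusted p = 1.0, 0.75 and 0.616), and those of RBM6 were 0.14, 0.08 and −0.07. Both also had libraries outside the range of CTRL. At 1 h no gene of the 6 passed (0.851% of all genes were called), nor at 6 h (13.2%). In nuclear RNA at JTE 1h RBM5 was at 55.9, 56.6 and 58.9 CPM, below all 3 controls, with a log2 fold change of −0.14 (SE 0.0964, adjusted p = 0.424).

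At 18 h of JTE-607 only RBM39 fell. It was at 239.0, 244.2 and 239.2 CPM, below every CTRL library, which gave a log2 fold change of −0.35 (SE 0.0759, adjusted p = 0.00426). None of the 6 was called against 5.39% of all genes, and 1 of 6 passed the adjusted p against 9.2%. The fall took place after 6 h, since the step from 6 to 18 h was −0.34 (SE 0.0759, adjusted p = 0.00247), and it passed in all 6 fits without 1 library. For that step none of the 6 was called (13.4% of all genes) and 1 of 6 passed the adjusted p (21.8%), whereas from 1 to 6 h none was called (9.21%). Without the filter on low counts the adjusted p was 0.0584 for the difference from CTRL and 0.111 for the step.

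CIRBP was low after JTE-607 without passing the test in the fit by group alone. It was at 83.6, 104.9 and 81.1 CPM at 6 h, below the 3 CTRL libraries, and at 73.9, 115.5 and 72.4 CPM at 18 h, where replicate 2 overlapped CTRL. Replicate 2 was the highest CIRBP library in every treated mRNA group. The log2 fold changes were −0.50 (SE 0.210, adjusted p = 0.105) and −0.55 (SE 0.211, adjusted p = 0.113). Without JTE 18h replicate 2 the latter was −0.81 with an adjusted p of 0.0293, and without the filter on low counts both passed (adjusted p = 0.000593 and 0.00134). Both also passed in edgeR with the replicate block (adjusted p = 0.0052 and 0.00425), although the labeled numbers do not pair with those of CTRL. The step from 1 to 6 h was −0.46 (adjusted p = 0.177), and −0.45 with an adjusted p of 0.0222 when the replicate numbers, which paired these 2 groups, were a block. In nuclear RNA at JTE 1h CIRBP was at 152.8, 146.5 and 144.3 CPM, below all 3 controls (log2 fold change −0.24, adjusted p = 0.153, and 0.0126 with the replicate block). RBM25 there had a log2 fold change of 0.18 (adjusted p = 0.744, and 0.0381 with the block), and no gene of the 6 passed without it (8.52% of all genes were called).

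Imatinib and JTE-607 were then set against each other at equal times. At 1 h none of the 6 passed (1.09% of all genes were called), and log2 differences lay between −0.08 and 0.15. At 6 h CIRBP was higher under imatinib by 0.86 (SE 0.211, 1.81-fold, adjusted p = 0.00295) and RBM5 by 0.63 (SE 0.167, 1.55-fold, adjusted p = 0.00472), and both were called. That is 2 of 6 called against 23.8% of all genes, and 3 of 6 past the adjusted p against 34.8%, the third being RBM25 at −0.28 (adjusted p = 0.0449). CIRBP was at 149.3, 202.4 and 136.2 CPM in IM 6h, and all 3 exceeded the JTE 6h libraries. The RBM5 difference stayed significant in all 6 fits without 1 library but was at 0.49 without IM 6h replicate 2 and at 0.52 without JTE 6h replicate 3, below the called size. RBM25 passed in only 1 of those 6 fits, with an adjusted p of up to 0.175 without IM 6h replicate 2. RBM6 at −0.27 (adjusted p = 0.0677) passed with the replicate block (−0.26, adjusted p = 0.0322).

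At 18 h CIRBP remained higher under imatinib by 0.77 (SE 0.211, 1.70-fold, adjusted p = 0.00527), the only one called of the 6 (background 30.3%). Without IM 18h replicate 2, the highest CIRBP library of that group, the difference was 0.50 (adjusted p = 0.0787). Replicate 2 was the highest CIRBP library in every treated mRNA group, and JTE 18h replicate 2, at 115.5 CPM, was kept in that fit. RBM5 was higher by 0.58 (SE 0.166, adjusted p = 0.00686) and RBM6 lower by 0.43 (SE 0.112, adjusted p = 0.00352). With RBM25 (−0.27, adjusted p = 0.0456) 4 of 6 passed the adjusted p, against 44.2% of all genes. RBM25 no longer passed without IM 18h replicate 1 (adjusted p = 0.169) or 3 (0.109) and without JTE 18h replicate 2 (0.179). RBM39, which was below CTRL under both drugs at 18 h, differed between them by 0.08 with a 95% interval of −0.08 to 0.23.

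KCl for 3 h lowered RBM5 mRNA. RBM5 mRNA was at 49.1, 51.9 and 32.6 CPM after 1 h, spread as widely as CTRL, and at 32.5, 31.5 and 33.1 CPM after 3 h, below all CTRL libraries (log2 fold change −0.50, SE 0.168, adjusted p = 0.0445). It no longer passed without CTRL replicate 1 (adjusted p = 0.247) or 2 (0.0776) and without KCl 3h replicate 1 (0.0984), 2 (0.114) or 3 (0.098), and was called at −0.62 without CTRL replicate 3. At 3 h none of the 6 was called (11.9% of all genes) and 1 of 6 passed the adjusted p (15.8%). At 1 h none was called (5.45%). The step from 1 to 3 h was −0.46 for RBM5 (adjusted p = 0.141, and 0.0314 with the replicate block), with none of the 6 called (3.29%), and without KCl 1h replicate 3 it was −0.65 (adjusted p = 0.0234). KCl 1h replicates 2 and 3 were the 2 deep libraries, and RBM5 was at 51.9 and 32.6 CPM in them.

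In nuclear RNA after 1 h of KCl it was CIRBP and RBM39 that fell. CIRBP was at 135.7, 121.2 and 116.4 CPM, below every nuclear CTRL library (log2 fold change −0.49, SE 0.099, adjusted p = 0.000656). RBM39 was at 222.0, 186.0 and 177.5 CPM and overlapped CTRL through replicate 1 (log2 fold change −0.31, SE 0.110, adjusted p = 0.0398). Without nuclear CTRL replicate 1 or KCl replicates 2 or 3 its adjusted p was 0.124, 0.128 and 0.17, while CIRBP passed in all 6. None of the 6 was called (background 23.8%) and 2 of 6 passed the adjusted p (27.2%). Nuclear RBM5 was at 51.2, 60.6 and 54.6 CPM (log2 fold change −0.19, SE 0.0966, adjusted p = 0.182).

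**Figure D3:**
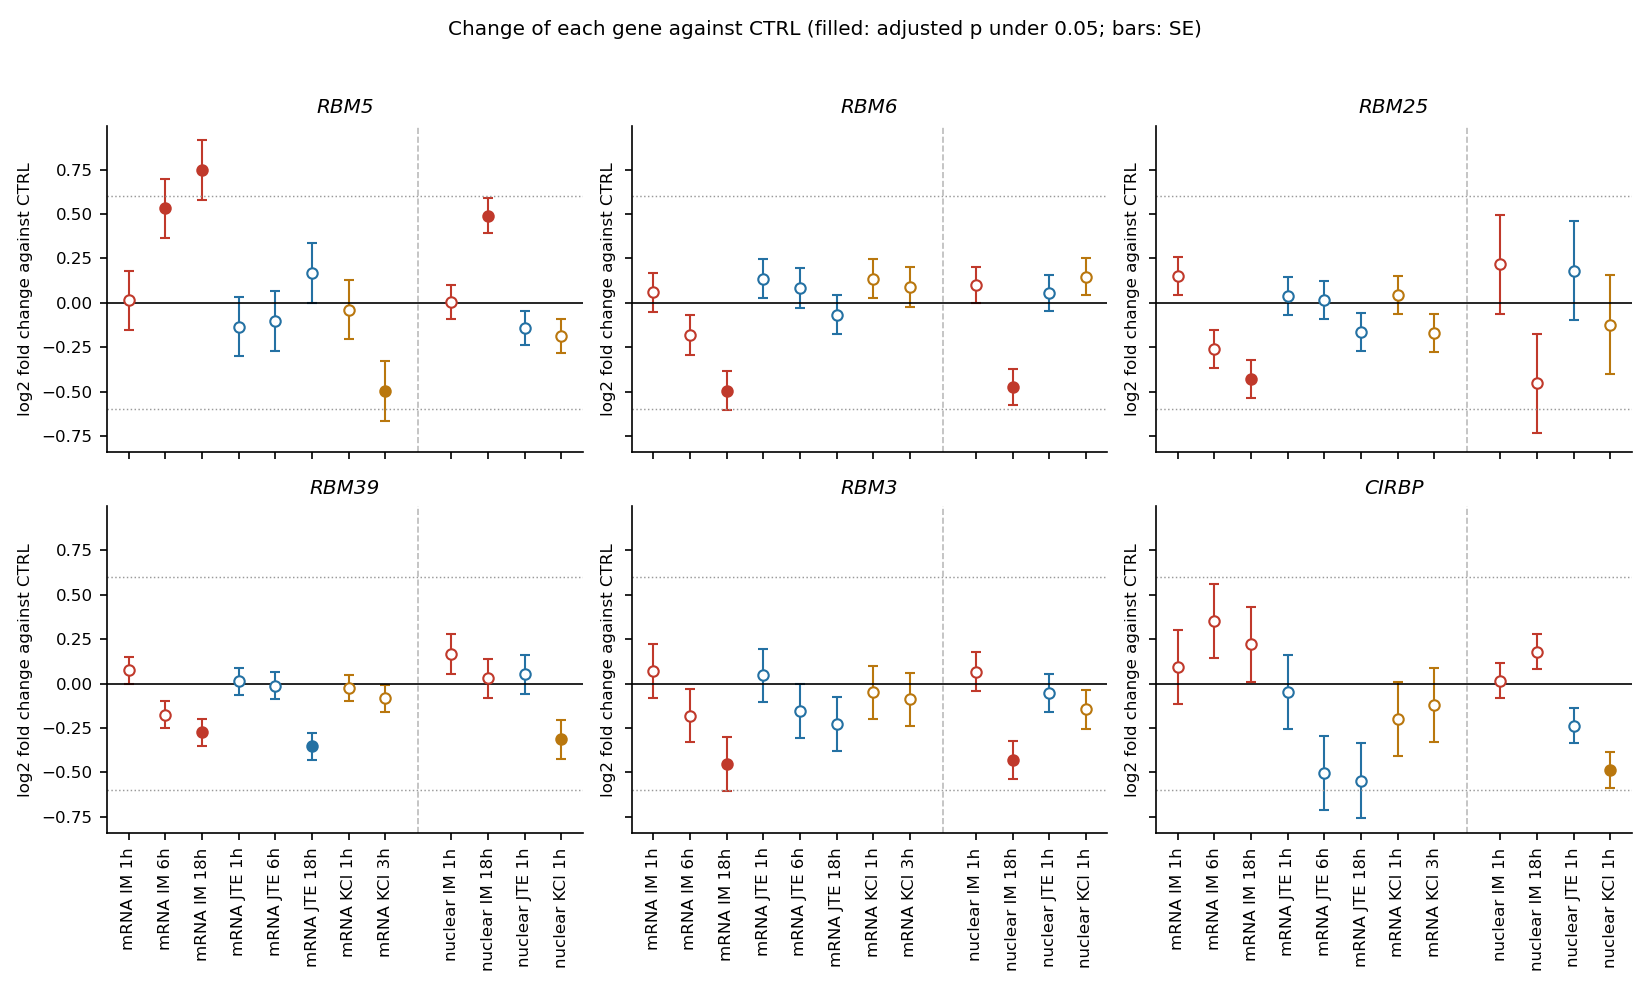
Log2 fold change against CTRL, with bars for ± SE, of each gene in the 8 mRNA and 4 nuclear comparisons, colored as IM red, JTE blue and KCl ochre. Filled points have an adjusted p under 0.05 and dotted lines mark 0.6. Of 72 values 13 are filled and RBM5 in mRNA IM 18h alone is also beyond 0.6.

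Because RBM5 and RBM6 share a locus, and RBM3 and CIRBP a response to cooling, the ratio of each pair was taken within every library, which removes the scaling of libraries. The RBM5 to RBM6 log2 ratio was −1.18, −1.22 and −1.60 in mRNA CTRL, −0.71, −0.51 and −0.63 in IM 6h and 0.15, −0.15 and −0.23 in IM 18h. The means correspond to 0.396, 0.652 and 0.950 RBM5 counts for each RBM6 count. The ratio rose by 0.72 at 6 h and by 1.26 at 18 h on the log2 scale without overlap, each with an exact two-sided permutation p of 0.1, the smallest that 3 against 3 libraries allow. In nuclear RNA it went from −1.03, −0.85 and −0.62 to 0.23, −0.08 and 0.24 at IM 18h, a difference of 0.96 (exact p = 0.1). At KCl 3h it was −1.92, −2.07 and −1.73, a difference of −0.57 from CTRL in the other direction (exact p = 0.1), and at nuclear KCl 1h the difference was −0.34 (exact p = 0.1). At JTE 18h the difference was 0.24 (exact p = 0.1), and at JTE 6h it was −0.18 and the groups overlapped (exact p = 0.3).

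The RBM3 to CIRBP log2 ratio was 0.89, 1.16 and 1.54 in mRNA CTRL and 0.64, 0.38 and 0.62 in IM 18h, a difference of −0.65 (exact permutation p = 0.1). In nuclear RNA it was 0.10, 0.16 and 0.09 in CTRL and −0.58, −0.26 and −0.63 in IM 18h, so that CIRBP had more counts than RBM3 in all 3 treated libraries (difference −0.61, exact p = 0.1). Per kilobase of counted exon RBM3 was still the higher in nuclear IM 18h, at 37.72 ± 4.79 CPM against 30.96 ± 3.64 CPM for CIRBP. It differed by 0.34 at nuclear KCl 1h and by 0.18 at nuclear JTE 1h, upward in both (exact p = 0.1). Over the 24 tests of both ratios 10 reached the smallest possible p, and the lowest adjusted p was 0.24, so that none passes a correction.

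**Figure D4:**
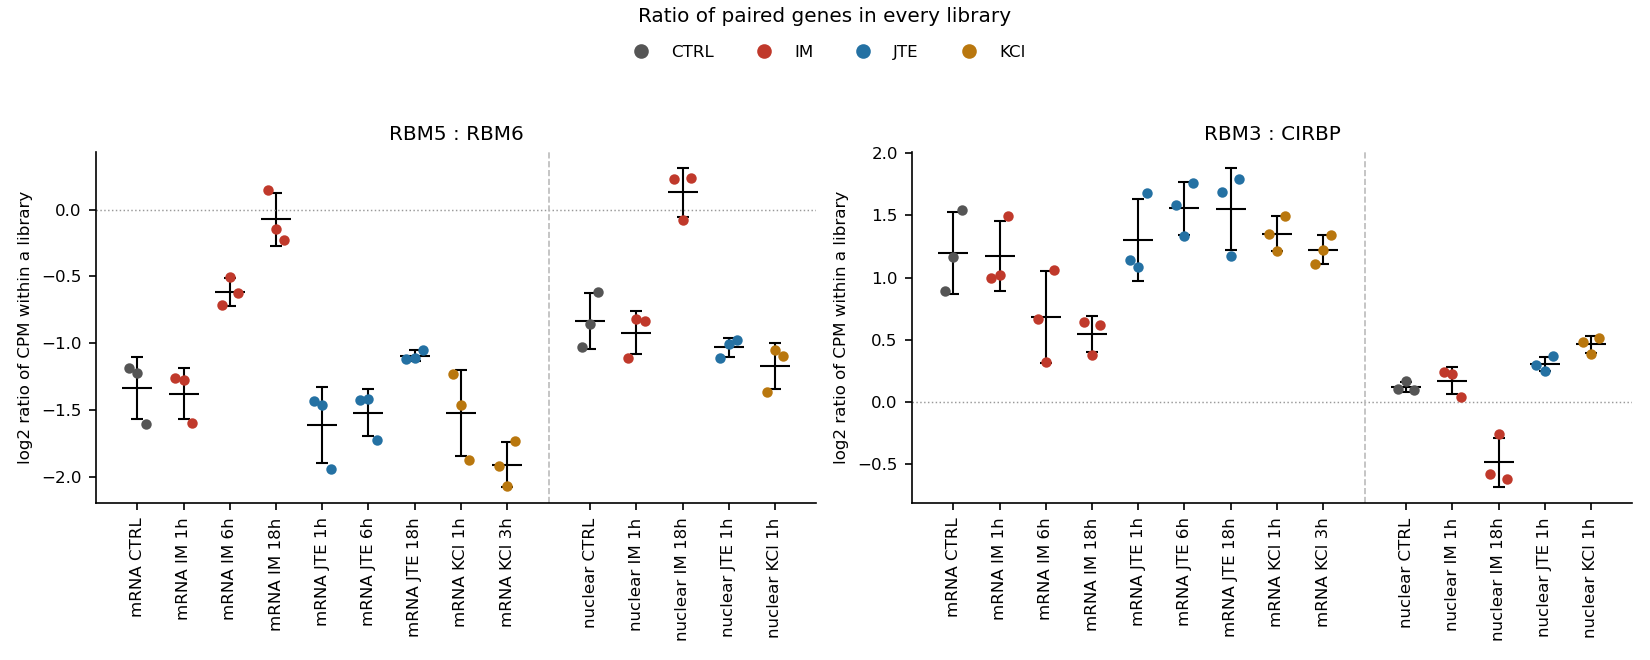
Log2 ratio of RBM5 to RBM6 (left) and of RBM3 to CIRBP (right) within each library, with dots for libraries, black bars for the mean ± SD of 3 and a dashed line between mRNA and nuclear groups. The RBM5 ratio climbs from a mean of −1.33 in mRNA CTRL to −0.07 in IM 18h, and the RBM3 ratio drops below 0 in nuclear IM 18h alone.

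The genes around the members were read in the comparisons with CTRL. Antisense partners had few counts, RBM5-AS1 at no more than 5 and SEMA3F-AS1 at no more than 18 in any mRNA CTRL library. RBM5 had at least 697 counts there. Fragments that also touched exons of RBM5 were left out. RBM5-AS1 shares 1007 exon bases with RBM5, and SEMA3F-AS1 shares 801. The low counts therefore do not show how abundant these antisense RNAs were. SEMA3F-AS1 nevertheless passed the test in KCl, with log2 fold changes of −3.99 at 1 h (adjusted p = 0.000301) and −3.11 at 3 h (adjusted p = 0.00205), the time at which RBM5 fell, and its part in the RBM5 result was not tested. At nuclear KCl 1h RBM5-AS1 (−1.98, adjusted p = 0.0192), RBM25-AS1 (−1.20, 0.0167) and ENSG00000258448 within RBM25 (−2.56, 0.0135) fell, from 0.728, 0.653 and 0.518 CPM in nuclear CTRL. CIRBP-AS1 fell at nuclear JTE 1h (−0.84, adjusted p = 0.0147). ENSG00000204620, which overlaps RBM3, passed in no nuclear comparison. The part of these genes in the members' results was not tested. No strand setting is given for the counting, so that sense and antisense reads cannot be told apart. The nearest tested genes on the same strand were INKA1, 134977 bases upstream of RBM6, which fell by 2.65 on the log2 scale at mRNA IM 18h (adjusted p = 7.08e-05), and SEMA3F, 36024 bases downstream of RBM5, which rose by 0.93 (adjusted p = 0.0115) and likewise by 0.93 at JTE 18h (adjusted p = 0.0442). INKA1 also fell in mRNA at IM 6h (−1.29, adjusted p = 0.0296) and JTE 6h (−2.12, adjusted p = 0.00101), and in nuclear RNA at IM 18h, JTE 1h and KCl 1h. SEMA3F also rose at nuclear IM 18h (0.69, adjusted p = 0.00193). INKA1 and SEMA3F were low in mRNA CTRL, at 2.29 and 2.55 CPM. FAM174C, chosen after its values were seen, starts 558 bases beyond CIRBP on the same strand and was at 7.54, 9.57 and 10.8 CPM in mRNA IM 18h against 17.2, 11.7 and 15.5 CPM in CTRL (log2 fold change −0.67, adjusted p = 0.00849). It also fell at JTE 18h, by 0.88 on the log2 scale (adjusted p = 0.00626).

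Patterns most like each member over the 27 mRNA libraries were named from 8715 genes with a symbol and a mean of at least 10 CPM, by Pearson correlation of log2 CPM, as a description of 9 groups that share depth and scaling. For RBM5 they were RPRD2 (r = 0.922), VWDE (0.917) and FTX (0.909), with 0.684, 0.486 and 0.865 over the 15 nuclear libraries. For RBM6 they were NOP14 (0.953), NCL (0.950) and RBM28 (0.946), with 0.872, 0.971 and 0.923 in nuclear RNA. For RBM25 they were VMA21, SLBP and SYNCRIP (0.879 to 0.886), and for RBM3 they were SRSF2, SERP1 and SAR1A (0.853 to 0.896). For CIRBP they were MCM5, CHTF18 and NRDE2 (0.833 to 0.862). The genes closest to RBM39 in mRNA, UBXN8, RABEP1 and CHST10 (0.852 to 0.883), gave 0.299, 0.210 and −0.230 in nuclear RNA.

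Other genes of the class changed in both directions at IM 18h. Of 38 other RBM genes 34 were tested, and 3 were called higher and 5 lower in mRNA, 8 of 34 against 30.5% of all genes, with a median log2 fold change of −0.10 against 0.04 for all genes. RBM43 was at 39.7 ± 13.3 CPM against 9.97 ± 3.93 in CTRL (log2 fold change 1.99, adjusted p = 0.00012, edgeR) and RBMS1, barely expressed, at 0.686 ± 0.187 against 0.163 ± 0.145 CPM (2.03, adjusted p = 0.00383). RBM47, an RNA-binding cofactor of cytidine deaminase, fell by 1.19 to 4.30 ± 0.763 CPM (adjusted p = 7.06e-05). RBM28, a nucleolar protein needed to make the large ribosomal subunit, fell by 1.02 to 128.1 ± 20.1 CPM (adjusted p = 4.48e-07). In nuclear RNA 34 were tested as well, with RBM44 in place of RBMS1. In nuclear IM 18h 2 of these 34 were called higher and 8 lower, against 32.6% of all genes. Both shares lay below those of all genes.

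In mRNA JTE 6h 1 of the 34 was called higher and 4 lower, against 13.2% of all genes, with RBM8A, a core protein of the exon junction complex, higher by 0.65 (adjusted p = 0.00158), RBM48 lower by 0.97 (adjusted p = 0.000114) and RBM15B, an adaptor of the m6A methyltransferase, lower by 0.92 (adjusted p = 2.01e-05). In KCl 3h RBM48 and RBM12B fell by 1.33 and 1.20 (adjusted p = 2.94e-06 and 1.35e-05), and they were the only 2 called (11.9% of all genes). In nuclear KCl 1h 4 of the 34 tested in nuclear RNA were called, against 23.8% of all genes. RBM44 was higher by 3.93 at 2.68 ± 0.784 CPM against 0.171 ± 0.0333 CPM, and RBMS2 by 2.22. RBM34 and RBM4 were lower by 1.10 and 0.80 (adjusted p of the 4 from 2.09e-08 to 0.00141). Those called in mRNA IM 6h (RBM43), JTE 1h (RBM15 and RBM48) and JTE 18h (RBM47 higher, RBMX lower) are named after their values were seen, and none was called in mRNA IM 1h, KCl 1h, nuclear IM 1h or nuclear JTE 1h by edgeR with group alone. With only the compared groups in the fit neither gene was called at JTE 1h, and at IM 6h other settings called 2 or 3. With the replicate block 1 gene, RBM34, was called lower in nuclear JTE 1h.

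Early spliceosome partners of RBM5 and RBM25 were called at IM 18h only as lower. Of 25 listed U1, U2 and related factors 24 were tested. In mRNA 0 were called higher and 5 lower, and in nuclear RNA 0 higher and 9 lower. Of all genes 30.5% and 32.6% were called either way. Called lower were 2398 of 18095 genes in mRNA and 3375 of 21929 in nuclear RNA. At the adjusted p alone 1 rose in nuclear RNA, TIA1, named after its values were seen (log2 fold change 0.33, adjusted p = 0.0345). Their median log2 fold changes were −0.25 and −0.36, against 0.04 and 0.0 over all genes. SF3A3, a subunit of the U2 particle, was at 238.7 ± 23.0 CPM against 428.2 ± 25.4 in mRNA CTRL (log2 fold change −0.84, adjusted p = 1.46e-06, edgeR), and SF1, which binds the branch point, at 274.3 ± 21.4 against 455.0 ± 74.8 CPM (−0.73, adjusted p = 0.0016). Outside imatinib few were called. SF3A2 fell by 0.72 at JTE 6h (adjusted p = 0.000366), and SF1, named after its values were seen, fell by 0.67 at JTE 18h (adjusted p = 0.0164). U2AF1 had log2 fold changes of −1.58 at KCl 3h and −1.84 at nuclear KCl 1h (adjusted p = 3.02e-05 and 6.79e-08), and, named after its values were seen, of −1.86 at mRNA KCl 1h (adjusted p = 8.96e-06). U2AF1 has a near-identical second copy in this genome build, and reads mapping to both were discarded, so its level of 4.84 CPM in CTRL is uncertain.

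Among 7 transcripts whose splicing members of the class are known to act on, 0 were called higher and 2 lower in mRNA IM 18h, a share close to the 30.5% of all genes. BCL2L1, the survival gene whose splice choice RBM25 shifts, was at 45.2 ± 4.79 CPM against 99.6 ± 12.9 in CTRL (log2 fold change −1.14, adjusted p = 1.93e-05, edgeR). CFLAR, an inhibitor of caspase activation, was at 46.7 ± 2.67 against 71.2 ± 10.1 CPM (−0.61, adjusted p = 0.0185). FAS (1.04, adjusted p = 0.286), CASP2 (−0.16, adjusted p = 0.449) and CASP9 (0.04, adjusted p = 0.821) did not pass. BCL2L1 and CFLAR were also called lower at IM 6h (−1.62 and −0.998) and in nuclear IM 18h, where BCL2L11, a death-promoting relative of BCL2L1, was called higher by 0.85, and these 3 are named there after their values were seen. Gene counts do not separate the splice forms of any of these genes or of the 6, and none of the 7 was called under JTE-607 or KCl with all groups in the filtered fit. At JTE 18h 1 of them, BCL2L11, was called lower without the filter on low counts, with only the compared groups and with the replicate block.

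**Figure D5:**
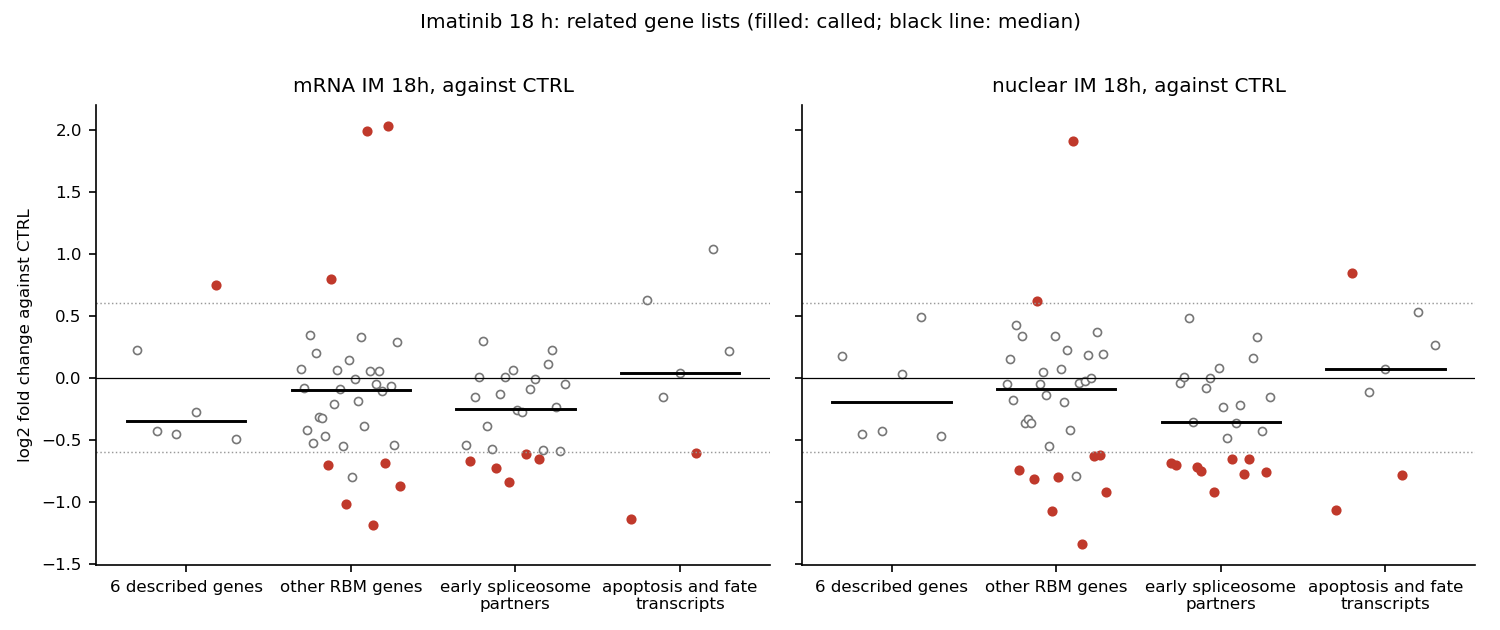
Log2 fold change at IM 18h against CTRL of the 6 genes and of the 3 related lists (34, 24 and 7 genes tested), in mRNA (left) and nuclear RNA (right), with filled points for called genes, a black line for the median and dotted lines at 0.6. The spliceosome list has no called gene above 0 and among the 6 genes RBM5 in mRNA is the only filled point.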

How the data were processed

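The authors trimmed and deduplicated paired reads with fastp, aligned them to the human genome (GRCh38.p14 per the submitters' processing notes) with STAR, keeping uniquely mapped reads, and counted read pairs over exons per gene with featureCounts, and they deposited these raw counts in 1 table of mRNA and 1 of nuclear RNA. The aligner was limited to introns of 10000 bases, which 3 of 20 canonical introns of RBM6, 1 of 18 of RBM25 and none of the other members exceed, so spliced reads across those introns were not counted. Of 58243 gene identifiers 57532 were in the table of names. Neither table held a count column without a sample (0 columns).

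Counts were scaled by TMM in edgeR 4.0.16 (R 4.3.3), genes were filtered with filterByExpr, and the quasi-likelihood test was fitted with group alone over all 27 mRNA or all 15 nuclear libraries, and over both with fraction for the interaction. Benjamini-Hochberg adjustment ran over all genes tested, and 95% intervals used the degrees of freedom of the fit. A level is CPM, the count scaled to the TMM-adjusted library size. Ratios were taken on CPM without a pseudocount and compared by exact permutation in scipy 1.17.1. Members' raw counts were 623 to 18220 in mRNA. The replicate SD of RBM5 was as narrow as 0.526 CPM at a mean of 51.3 CPM in mRNA JTE 18h. Counting error can therefore not be taken as small beside the spread of replicates in every group.

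The members and lists were chosen with earlier results of these data known. Named were all 6 members in every comparison, from each list the called genes that rose most (2) and fell most (2) in mRNA IM 18h, JTE 6h, KCl 3h and nuclear KCl 1h, the nearest tested neighbors of RBM5 and RBM6, genes that overlap a member, and the 3 genes most like each member. Replicate numbers of the titles were read as pairs where every correlation of same-numbered deviations exceeded 0.1, which held for all 4 nuclear comparisons with CTRL (0.235 to 0.891), for none of the mRNA comparisons with CTRL, and for 6 of the 8 comparisons between treatments, not IM 18h with IM 6h or with JTE 18h. Alternatives were DESeq2 1.42.0, RLE scaling, a fit of unfiltered genes, calls by adjusted p alone, only the compared groups, the replicate block, thinned counts, each library left out, a pseudocount of 0.5 CPM for the ratios and Spearman correlation for likeness. Promoter sequences came from RefSeq and transcript models from GENCODE 44.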

Additional observations from a re-analysis of the deposited data

How the results depend on the processing

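Without the fold change threshold, the members past the test numbered 1 in IM 6h, 5 in IM 18h, 1 in JTE 18h, 1 in KCl 3h, 3 in nuclear IM 18h, 2 in nuclear KCl 1h, 3 in IM 6h against 1h, 3 in IM 6h against JTE 6h, 1 in JTE 18h against 6h and 4 in IM 18h against JTE 18h. With each library left out in turn, the members called ranged from 0 to 1 in IM 6h, 1 to 2 in IM 18h (RBM3 joined without IM 18h replicate 2), 0 to 1 in JTE 18h, 0 to 1 in KCl 3h, 0 to 1 in nuclear IM 18h (RBM5 without nuclear CTRL replicate 3), 0 to 1 in KCl 3h against 1h, 1 to 2 in IM 6h against JTE 6h and 0 to 1 in IM 18h against JTE 18h. No other alternative run changed a count of called members, and the cause of these changes was not tested. Of the members' fold changes 1773 kept their side of the threshold, 24 came to pass the adjusted p and 51 no longer did, none reversed among those that passed, and all 168 ratio values moved by less than the replicate SD.

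With the replicate block in the paired comparisons RBM25 at nuclear IM 18h had a log2 fold change of −0.44, and among interactions RBM39 at KCl 1h passed (−0.39, adjusted p = 0.0368), although the mRNA numbers do not pair. Against mRNA CTRL, number 3 correlated at 0.0556 to 0.877 and numbers 1 and 2 at −0.368 to 0.0791. The study itself numbers CTRL 1 and 2 the other way round from the labels. A pairing by that other numbering was not tested. In comparisons whose numbers, as labeled, do not pair, the replicate block took CIRBP past the test at JTE 6h (adjusted p = 0.0052) and 18h (0.00425), RBM25 at IM 6h (0.0353) and RBM6 at IM 18h against 6h (0.031). RBM5 no longer passed at IM 6h with only the compared groups (adjusted p = 0.0577) or thinned counts (0.0581), and at KCl 3h with RLE scaling (0.0508) or thinned counts (0.0634).

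Counts over all genes moved by more than 1.5 times for 3 genes in IM 1h (6 by DESeq2, 13 without the filter, 1 with the compared groups only, 5 with the block), 154 in JTE 1h (237 without the filter, 5 with the compared groups only, 258 with the block), 986 in KCl 1h (465 with the compared groups only), 10 in nuclear IM 1h (28 by DESeq2, 48 without the filter, 69 with the block) and 5227 in nuclear KCl 1h (8022 without the filter). Between treatments they moved for 798 in IM 18h against 6h (1213 without the filter, 1368 with the block), 1667 in JTE 6h against 1h (800 with the compared groups only), 596 in KCl 3h against 1h (990 without the filter, 294 with the compared groups only) and 197 in IM 1h against JTE 1h (1 with the compared groups only). Of the interactions, IM 1h went from 0 to 2 without the filter, IM 18h from 17 to 33 by DESeq2, 61 without the filter and 30 with the block, JTE 1h from 12 to 27, 62 and 19, and to 7 with thinned counts, and KCl 1h from 141 to 343, 400 and 310, and to 87 with thinned counts. At mRNA IM 18h the called spliceosome partners went from 5 to 9 without the filter and to 8 with the compared groups only or thinned counts. By Spearman correlation, likeness kept 1 of the 3 named genes for RBM5 and for RBM39, and none for RBM6, RBM25 or CIRBP.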
